A study of Mus musculus with 3 samples.

Results

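Il6-expressing mature dendritic cells are migratory-type dendritic cells of the mouse Peyer's patch that carried at least 2 unique transcript molecules (UMIs) of Il6. They were chosen from the raw UMI counts of all 3 libraries by limits on named genes. A cell needed 500 or more genes detected, with mitochondrial transcripts making up no more than 10% of its UMIs. Per 10000 UMIs it had under 40 of Lyz1, C1qa, C1qb and C1qc together and at least 15 of Ccr7 and Fscn1 together. It also had under 3 UMIs of Cd79a, under 3 of Il12b and at least 2 of Il6. The limits found 864 cells of 15434 that passed the filters on genes and mitochondrial UMIs, of 15526 barcodes in all. They were 792 cells after CpG, 57 after R848 and 15 in Control. Mature cells of the same library with 0 Il6 UMIs, called Il6-negative here, were the cells they were set against: 1554, 1971 and 262. Il6, Ccr7, Fscn1 and the other genes of the limits chose the cells, so their values are a description.

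The study sorted CD11c-positive phagocytes (conventional dendritic cells of types 1 and 2, LysoDC and macrophages) from Peyer's patches of female C57BL/6Rj mice and sequenced their transcripts with 10x Chromium 3' chemistry. The CpG mice had received 125 µg of CpG, an unmethylated DNA that triggers TLR9, and the R848 mice 10 µg of R848, a small molecule that triggers TLR7, in each case by injection into the peritoneum 9 h earlier. The Control mice were untreated and had no mock injection. Each library pooled 12 mice, with 85 Peyer's patches for CpG, 90 for R848 and 88 for Control, and was 1 sample. There was therefore no replicate and no test. Intervals are at 95% and include no error other than counting error, and differences between libraries cannot be told apart from differences between pools.

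Dendritic cells that have sensed a microbial ligand or have taken up self material mature, raise CCR7, which guides them to T cell zones, and raise fascin (Fscn1), which bundles actin in their processes. Interleukin-6, the product of Il6, is a secreted cytokine that acts through IL-6R and gp130 on STAT3. In the gut it is known for helping T cells become Th17 or follicular helper cells and for helping B cells become IgA-secreting plasma cells. Transcription of Il6 in mouse macrophages needs NF-kB and its nuclear cofactor IkappaBzeta, the product of Nfkbiz, and its mRNA is short-lived.

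Mature cells with Il6 were frequent in the CpG library. After CpG, 28.3% of the 2802 mature cells had at least 2 Il6 UMIs (interval 26.6% to 29.97%). After R848 it was 2.596% of 2196 mature cells (1.97% to 3.35%), and in Control 4.90% of 306 (2.77% to 7.96%). The interval of the CpG library lay apart from both others, and those of R848 and Control overlapped. The summed level of Il6 in all mature cells was 221 CPM (counts per 1000000 UMIs) after CpG (215 to 228), 24.9 CPM after R848 (22.2 to 27.7) and 46.1 CPM in Control (36.4 to 57.5). Median depth of mature cells was 5738, 5414.5 and 4958 UMIs. With every cell thinned to 5000 UMIs and shallower cells left out, which left 1726, 1253 and 151 cells, the shares were 25.03%, 1.995% and 5.30%.

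Free RNA gives UMIs also in cells that do not make a transcript, so lysozyme-high phagocytes with few Ccr7 and Fscn1 UMIs served as the background. At least 2 Il6 UMIs were found in 0.924% of 1299 such cells after CpG, in 0.404% of 1979 after R848 and in 0.314% of 2229 in Control. Those cells were deeper, with a median of 13267, 12518 and 10124 UMIs. The share in mature cells was above this background in each library. Low-lysozyme cells with few Ccr7 and Fscn1 UMIs were not used as the background. At least 2 Il6 UMIs were found in 3.85% of 650 such cells after CpG, 1.21% of 577 after R848 and 0.267% of 2625 in Control. After R848 their interval (0.489% to 2.48%) overlapped that of mature cells, whereas after CpG and in Control the intervals lay apart.

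The Il6 UMIs were spread unevenly. A member had a median of 4 Il6 UMIs after CpG and at most 36; the median was 2 after R848 and 3 in Control, with at most 9 and 7. The tenth of CpG mature cells with the most Il6, 281 cells, held 52.8% of the Il6 UMIs of mature cells. The 792 members carried 69.7% of all Il6 UMIs of the CpG library, whereas members carried 20.3% of those in the R848 library and 15.6% in Control. After R848 much of the rest lay in mature cells left out for Il12b and in lysozyme-high cells with Ccr7 and Fscn1. Of mature cells with at least 3 Il12b UMIs, at least 2 Il6 UMIs were found in 97 of 131 after CpG (74.0%), in 20 of 48 after R848 (41.7%) and in 16 of 40 in Control (40.0%). Of lysozyme-high cells with Ccr7 and Fscn1 at or above the limit, it was 19 of 81 (23.5%), 43 of 215 and 1 of 22.

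**Figure D1:**
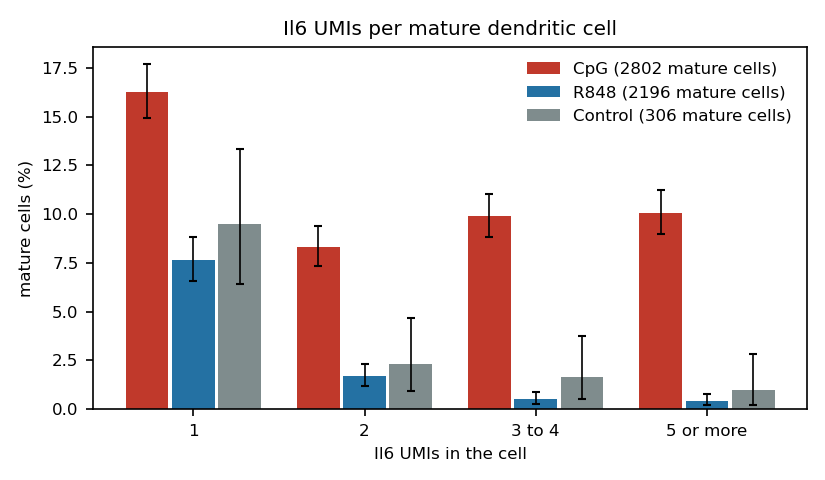
Share of mature cells (y axis, %) with 1, 2, 3 to 4 and 5 or more Il6 UMIs (x axis) in the CpG, R848 and Control libraries; bars are shares and lines their exact binomial intervals. In each of the 3 classes from 2 UMIs up, the CpG bar is the highest, and after R848 and in Control most cells with Il6 have 1 UMI.

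Of 12 markers of mature dendritic cells, Ccr7 and Fscn1 were used to choose the cells, and the other 10 were not. Each of the 10 was higher in Il6-expressing cells than in the lysozyme-high cells with few Ccr7 and Fscn1 UMIs, with ratios from 4.28 to 82.6 after CpG, from 4.49 to 96.1 after R848 and from 3.37 to 209 in Control. Nudt17 had 650 CPM in Il6-expressing cells against 7.88 CPM in those lysozyme-high cells after CpG, and Ccl22 had 1098 against 20.5 CPM. None of the 10 differed 2-fold between Il6-expressing and Il6-negative cells after CpG or R848. The lysozyme-high cells were chosen by the opposite limits, so the ratios set members apart from those cells only. A comparison with low-lysozyme cells with few Ccr7 and Fscn1 UMIs was not made for these markers.

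Markers of neutrophils, mast cells or basophils, T cells and stromal cells were at or near 0, with summed levels of 0.891, 0, 5.17 and 0.534 CPM in Il6-expressing cells after CpG. After R848 neutrophil markers summed to 19.5 against 3.85 CPM, from 7 UMIs of S100a8 and S100a9 in the Il6-expressing cells. LysoDC and macrophage markers, of which Lyz1 and the C1q genes were limited by the choice of cells, summed to 1171 CPM in Il6-expressing cells and 1277 CPM in Il6-negative cells after CpG, and to 1885 and 1249 CPM after R848, where Lyz2 had 1359 against 749 CPM. NK or ILC markers summed to 217 against 111 CPM after CpG and 247 against 139 CPM after R848. Nearly all of this was Il7r, the IL-7 receptor chain (213 against 107 CPM after CpG); Klrb1c was at 0 UMIs, and Ncr1 at 1 UMI in Il6-expressing and 2 in Il6-negative cells. Plasma cell markers summed to 82.5 against 62.5 CPM after CpG, endothelial markers to 74.1 against 51.1 CPM, epithelial markers to 15.1 against 11.2 CPM and plasmacytoid markers to 611 against 748 CPM. B cell markers were higher, 61.8 against 28.7 CPM over 6 genes. Of these, Cd79b (33.8 against 12.4 CPM) was past 2-fold and Ms4a1 (24.1 against 13.2 CPM) was not, while Pax5 had 1 UMI in each group, 0.178 against 0.107 CPM. The part of these other cell types in the ratios below was not tested, apart from the B cell alternative given with the counts below.

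Members were also deeper, with a median of 6522.5 UMIs against 5302 in Il6-negative cells after CpG, 5812 against 5320 after R848 and 6347 against 4736.5 in Control. A limit of 2 UMIs favours deep cells, and a cell with 0 Il6 UMIs at this depth may still hold the transcript. Simulated-doublet scoring marked 3.66% of Il6-expressing and 1.80% of Il6-negative cells after CpG, 7.02% and 1.52% after R848, and 13.3% (2 of 15 cells) and 1.91% in Control; marked cells were kept. No barcode was shared between members of different libraries, although 34 kept barcodes were shared by CpG and R848, 42 by CpG and Control and 33 by R848 and Control.

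The Il6 gene lies on chr5:30013114-30019981 on the plus strand (mm10, GENCODE M21 coordinates). Its 250 bases before the annotated start, from RefSeq on GRCm38.p6, at chr5:30012864-30013113, are shown because they hold the kappaB site letters GGGNNTTTCC, the kind of element that NF-kB dimers bind, from 44 to 35 bases before the start. Capitals mark this match and the AP-1 letters TGANTCA near the window's far end.
Il6: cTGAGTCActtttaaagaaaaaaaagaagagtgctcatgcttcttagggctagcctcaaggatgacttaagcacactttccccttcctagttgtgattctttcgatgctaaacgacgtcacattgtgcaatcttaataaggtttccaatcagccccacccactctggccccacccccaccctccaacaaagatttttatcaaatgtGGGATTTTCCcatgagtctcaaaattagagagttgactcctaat

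Genes for a Notch ligand, an NF-kB cofactor, chemokines and surface receptors were higher in Il6-expressing than in Il6-negative mature cells of the CpG library, and Sct (secretin), Mdk (midkine), Cd8a, Serpinb1a and Epsti1 were lower. Dll4, a Notch ligand, had 4.43-fold the level, and Nfkbiz 3.68-fold. Of 4474 measured genes (at least 20 CPM and 20 UMIs in the higher group), 107 were at least 2-fold higher (2.39%) and 68 at least 2-fold lower (1.52%), on a log2 scale with 5 CPM added to both levels, which understates low genes. Il6 itself is not counted. The median log2 ratio of all measured genes was 0.15, so ratios are read against that value. Without the cells that held B cell marker UMIs, an alternative chosen after seeing the data, 90 of the 107 and 49 of the 68 were still called, and without marked doublets 105 and 68.

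**Figure D2:**
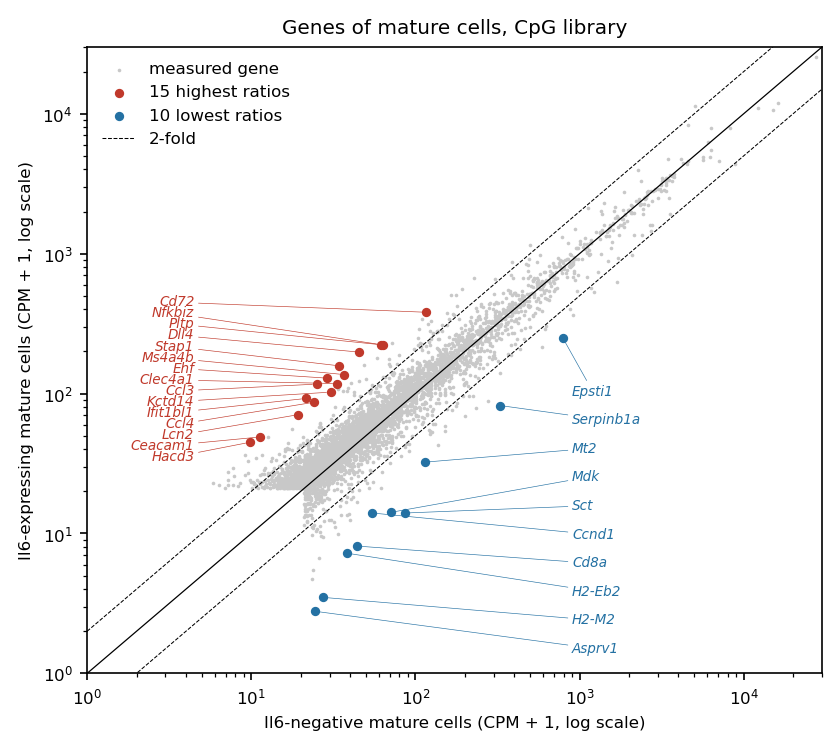
Level of each measured gene in Il6-negative mature cells (x axis, CPM + 1, log scale) and Il6-expressing mature cells (y axis, CPM + 1, log scale) of the CpG library; red and blue points are the 15 highest and 10 lowest ratios, and dashed lines mark 2-fold. Most genes lie near the diagonal; Cd72 (380 against 115 CPM) and Epsti1 (247 against 793 CPM) are the most abundant named genes on either side.

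Among signalling and transcription genes, Stap1, an adaptor of tyrosine kinase signalling, had 157 CPM in Il6-expressing cells (147 to 168) against 33.2 CPM in Il6-negative cells (29.6 to 37.1), a log2 ratio of 2.08. Dll4 had 197 CPM (185 to 209) against 44.4 CPM (40.3 to 48.9), a log2 ratio of 2.03. None of these intervals overlapped between the groups, which is a description, since the genes were picked for their ratio in the same cells. Ehf, an ETS-family transcription factor, had 128 against 27.95 CPM (log2 ratio 2.01). Nfkbiz, the nuclear IkappaB protein that Il6 induction needs in mouse macrophages, had 223 CPM (211 to 236) against 60.5 CPM (55.6 to 65.7; log2 ratio 1.80). Kctd14, a gene of little known function, had 101 against 29.4 CPM.

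The chemokine genes Ccl3 and Ccl4, whose products attract monocytes and T cells, were also among the highest. Ccl3 had 116 CPM in Il6-expressing cells against 24.0 CPM in Il6-negative cells, and Ccl4 85.7 against 23.1 CPM. Surface and lipid genes were in the same range. Cd72, a receptor for semaphorin CD100 that B cells also carry, had 380 against 115 CPM. Ceacam1, an adhesion receptor, had 47.9 against 10.3 CPM, and Clec4a1, a C-type lectin, 117 against 32.2 CPM. Pltp, which transfers phospholipids, had 222 against 62.5 CPM, and Hacd3, an enzyme of long-chain fatty acid synthesis, 43.8 against 8.78 CPM. Lcn2, which binds bacterial siderophores, had 69.7 against 18.3 CPM, and Ifit1bl1, of the Ifit family, 91.2 against 20.5 CPM.

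Ms4a4b, which encodes a membrane protein of the Ms4a cluster, had 136 against 35.7 CPM. The cluster's other genes were looked up after these values were seen. Of 19 Ms4a genes in the matrices 7 were measured after CpG, and 5 of these, Ms4a4b included, were at least 2-fold higher in Il6-expressing cells. Besides Ms4a4b they were Ms4a6c (502 against 164 CPM), Ms4a6d (340 against 108 CPM), Ms4a6b (287 against 104 CPM) and Ms4a7 (119 against 39.4 CPM). Ms4a4c (280 against 144 CPM) and Ms4a1 were higher by less than 2-fold. These genes are close relatives, and the sources used here do not say how the counting split reads between them. The cluster was also taken up because of the Ms4a4b ratio in the same cells. The count of 5 in 7 therefore cannot be set against the share over all measured genes.

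The genes lower in Il6-expressing cells of the CpG library began with Sct, which encodes the peptide hormone secretin. It had 13.0 CPM in Il6-expressing cells (10.2 to 16.4) against 85.9 CPM in Il6-negative cells (80.0 to 92.0), a log2 ratio of -2.34. H2-M2, a non-classical MHC class I gene, had 2.49 against 26.3 CPM, and Asprv1, an aspartic protease, 1.78 against 23.3 CPM. Mdk, the growth factor midkine, had 13.2 against 70.5 CPM. Cd8a, a surface marker of many type 1 dendritic cells, had 7.13 against 43.3 CPM. Serpinb1a, an inhibitor of neutrophil serine proteases, had 81.1 against 329 CPM. H2-Eb2, an MHC class II beta chain gene, had 6.24 against 37.1 CPM, and Ccnd1, the cyclin of the G1 phase, 13.0 against 53.7 CPM. Mt2, a metallothionein, had 31.4 against 113 CPM. Epsti1, an interferon-responsive gene, had 247 CPM (234 to 260) against 793 CPM (775 to 811). The intervals of all 10 genes lay apart between the groups. These genes were picked for their ratio in the same cells, and the intervals leave out spread between cells, so this is a description.

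Differences of the higher genes appeared also as shares of cells at equal depth. Thinned to 5000 UMIs, 576 Il6-expressing and 862 Il6-negative cells remained after CpG. Dll4 was detected in 50.2% of Il6-expressing and 13.5% of Il6-negative cells (unthinned 56.3% and 14.6%), against 0.908% of lysozyme-high cells with few Ccr7 and Fscn1 UMIs. Nfkbiz was detected in 53.3% and 23.2% (unthinned 66.2% and 23.2%), and Stap1 in 45.5% and 13.6% (unthinned 53.5% and 12.5%). Ehf was detected in 31.9% and 8.93% (unthinned 40.7% and 9.72%), against 0.578% of the lysozyme-high cells. So none of these genes marked every Il6-expressing cell, and each was also found in a minority of Il6-negative ones. Nfkbiz and Stap1 were also detected in 18.1% and 5.04% of the lysozyme-high cells. Ccl3 was detected in 15.97% of Il6-expressing and 5.22% of Il6-negative cells (unthinned 19.6% and 4.95%), and in 14.1% of the lysozyme-high cells. Of the 15 highest genes, a thinned Il6-expressing cell held a median of 5 and an Il6-negative cell a median of 1. At least 5 of them were found in 52.8% of Il6-expressing and 10.8% of Il6-negative cells, and none in 7.64% and 44.1%. Of the 10 lowest genes, a thinned Il6-expressing cell held a median of 1 and an Il6-negative cell a median of 2. Since the highest and lowest genes were picked for their ratio in the same cells, the counts describe how the ratios are spread over cells and no more.

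The levels followed the number of Il6 UMIs in the cell. These genes were picked for their ratio between cells with 0 and cells with 2 or more Il6 UMIs, so that contrast was set by the choice. The classes add the cells with 1 UMI and the order among 2, 3 to 4 and 5 or more. Cells with 1 Il6 UMI, just outside the limit, numbered 456 after CpG, and cells with 2, just inside it, 233. Dll4 had 44.4, 120, 164, 198 and 221 CPM in cells with 0, 1, 2, 3 to 4 and 5 or more Il6 UMIs. Nfkbiz had 60.5, 142, 179, 259 and 223 CPM. Epsti1 had 793, 527, 339, 237 and 187 CPM. Cells with 1 UMI thus lay between the Il6-negative cells and the members for these genes, and the levels of Nfkbiz did not keep climbing in the last class. Serpinb1a had 329, 268, 151, 42.6 and 63.7 CPM. Ccl3 had 24.0, 52.7, 51.2, 144 and 139 CPM, so it rose between 0 and 1 Il6 UMI and again between 2 and 3 to 4. Median depth climbed along with the classes, at 5302, 5945.5, 6267, 6455 and 6859.5 UMIs, and CPM takes the summed depth into account.

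**Figure D3:**
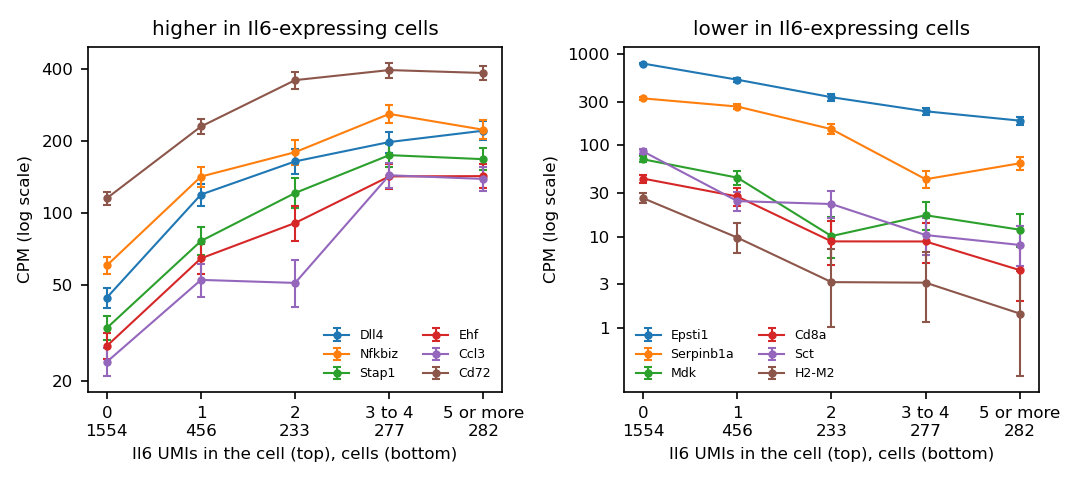
Summed level (y axis, CPM, log scale) of 6 genes higher (left) and 6 genes lower (right) in Il6-expressing cells of the CpG library, by the number of Il6 UMIs in the cell (x axis, with the number of cells beneath); lines at the points are exact Poisson intervals. Cells with 1 Il6 UMI lie between cells with 0 and cells with 2 for all genes drawn except Ccl3 (52.7 CPM at 1 UMI, 51.2 CPM at 2 UMIs). The genes were chosen as higher or lower in Il6-expressing cells, so the contrast between 0 and 2 or more UMIs was set by the choice.

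Of 8 measured cytokine genes after CpG, 1 was at least 2-fold higher and 0 lower, with a median log2 ratio of 0.34 against 0.15 over all measured genes. For this and the lists below after CpG, the shares over all measured genes were 2.39% higher and 1.52% lower. A list with 1 called gene is too small to set against these shares. It was Il1rn, the IL-1 receptor antagonist, with 418 CPM in Il6-expressing cells (401 to 435) against 179 CPM in Il6-negative cells (171 to 188). Il1b had 517 against 301 CPM, Ebi3, the subunit IL-27 shares with IL-35, 444 against 285 CPM, and Tnf 31.7 against 19.8 CPM. Il27, which encodes the partner of Ebi3, had 95.3 against 123 CPM, and Il15 59.7 against 109 CPM. Il1b, Ebi3 and Tnf stood on the higher side and Il27 and Il15 on the lower side, all within 2-fold. Il10 was at 3 UMIs in Il6-expressing and 6 UMIs in Il6-negative cells. Thinned to 5000 UMIs, Il1b was found in 51.04% of Il6-expressing and 35.2% of Il6-negative cells, against 57.4% of the lysozyme-high phagocytes (unthinned 54.3%, 34.9% and 73.8%). Many Il6-expressing cells thus had no Il1b UMI at this depth.

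Of the genes that receive IL-6 signals, Socs3 was past 2-fold. Socs3, which encodes the inhibitor that STAT3 induces, had 102 CPM in Il6-expressing cells (93.6 to 110) against 41.2 CPM in Il6-negative cells (37.2 to 45.6) after CpG. Of 10 measured genes in the list, 1 was higher and 0 lower, with a median log2 ratio of 0.05. Stat3 had 411 against 365 CPM. The receptor chains were low: Il6ra had 1.25 against 1.61 CPM, and Il6st, which encodes gp130, 6.24 against 18.3 CPM, both under the 20 CPM needed to be counted.

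Among regulators of Il6 transcription and mRNA decay, 1 of 16 measured genes was at least 2-fold higher after CpG and 2 lower (median log2 ratio 0.04). Nfkbiz was the higher one. Zfp36l1, whose product binds AU-rich elements and speeds mRNA decay, had 86.9 CPM in Il6-expressing cells (79.4 to 95.0) against 277 CPM in Il6-negative cells (266 to 287). Fos, an AP-1 subunit, had 19.4 against 44.3 CPM. Zc3h12a, the endonuclease that cuts Il6 mRNA, had 40.8 against 23.8 CPM, and Arid5a, which stabilises it, 36.2 against 29.2 CPM. Of the NF-kB subunits, Rel had 330 against 317 CPM, Nfkb1 77.3 against 68.3 CPM and Relb 751 against 927 CPM. The feedback inhibitor gene Nfkbia had 2019 against 1354 CPM. So of 19 measured genes in the NF-kB list, Nfkbiz was the 1 past 2-fold, with a list median of 0.06; Tnip3 (277 against 137 CPM) stood just under it once 5 CPM was added.

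The chemokine list had a median log2 ratio of 0.83 over 9 measured genes after CpG. Of these, 3 were at least 2-fold higher and 0 lower, against 2.39% higher and 1.52% lower over all measured genes. Besides Ccl3 and Ccl4 the third was Cxcl1, a ligand of the neutrophil receptor CXCR2, with 60.4 CPM in Il6-expressing cells against 25.1 CPM in Il6-negative cells. Ccl5, which attracts T cells, had 8334 against 4588 CPM, and Ccl17, a CCR4 ligand, 844 against 473 CPM. Ccl22, the other CCR4 ligand, had 1098 against 968 CPM. The CXCR3 ligand genes Cxcl9 and Cxcl10 had 141 against 154 CPM and 82.3 against 79.9 CPM.

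Maturation genes split. Of 38 measured after CpG, 3 were at least 2-fold higher and 3 lower, with a median log2 ratio of -0.05. Over all measured genes 2.39% were higher and 1.52% lower. Tnfrsf9, the costimulatory receptor 4-1BB, had 666 CPM in Il6-expressing cells (645 to 688) against 227 CPM in Il6-negative cells (217 to 237). Ido1, which degrades tryptophan, had 178 against 57.3 CPM, and Cd44, the hyaluronan receptor, 78.9 against 31.3 CPM. On the lower side were the tetraspanin gene Cd63 (361 against 917 CPM), Laptm4b, a lysosomal membrane protein gene (52.7 against 151 CPM), and Serpinb6b, a serpin gene (569 against 1181 CPM). Costimulatory ligands had 0 of 16 measured genes higher and 1 lower. That was Icosl, the ligand of ICOS, with 20.3 against 51.4 CPM; Cd40 had 896 against 757 CPM, Cd80 75.9 against 106 CPM and Cd86 67.5 against 108 CPM. In the migration list Vim, which encodes vimentin, was the 1 of 14 measured genes called, with 41.7 against 137 CPM.

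MHC class II genes stood on the lower side in Il6-expressing cells. MHC class II presentation had a median log2 ratio of -0.72 over 12 measured genes, with 0 higher and 2 at least 2-fold lower after CpG, against 1.52% of all measured genes. These were H2-Eb2, given above, and H2-Oa, a chain of the peptide-loading regulator H2-O, with 30.6 against 68.6 CPM. H2-Aa had 1927 CPM in Il6-expressing cells against 3553 CPM in Il6-negative cells, a ratio of 0.542 (0.531 to 0.554), and Cd74, the invariant chain, had a ratio of 0.744 (0.738 to 0.751). All 12 genes had a log2 ratio under 0. MHC class I processing had 0 of 23 genes past 2-fold in either direction and a median of -0.22. Of 37 measured interferon-stimulated genes 0 were higher and 1, Ifi205, was lower (34.6 against 81.0 CPM), a share near the 1.52% over all measured genes, with a median of -0.33. Isg15, a ubiquitin-like modifier gene, had 2373 against 2774 CPM. Usp18, which removes ISG15, had 434.5 against 281 CPM, and Oasl1, a 2'-5' oligoadenylate synthetase-like gene, 189 against 381 CPM, so members of the list stood on both sides.

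The other lists moved little after CpG. Toll-like receptors and adaptors had 1 of 8 measured genes higher, Tlr1, with 35.8 against 13.8 CPM. The receptors of the injected agonists were at 3 UMIs each in Il6-expressing cells, with 8 UMIs of Tlr9 and 6 of Tlr7 in Il6-negative cells. Aldh1a2, the retinaldehyde dehydrogenase of gut dendritic cells, had 678 CPM in Il6-expressing and 913 CPM in Il6-negative cells, and 0 of 3 measured genes of its list were past 2-fold. Neither were any of 13 glycolysis genes (median 0.02) or 18 survival genes (median 0.18). Of 20 immediate early and stress genes, 0 were higher and 1, Fos, was lower.

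Type 1 and type 2 dendritic cell markers were not equal between the groups. The cDC1 markers summed to 24.2 CPM in Il6-expressing cells and 47.0 CPM in Il6-negative cells after CpG, and the cDC2 markers to 59.1 and 41.4 CPM. Xcr1 and Clec9a, which define cDC1, had 2 UMIs each in the 792 Il6-expressing cells against 70 and 61 UMIs in Il6-negative cells. They are 2 of 8 cDC1 markers, and the remaining markers carried most of the 24.2 CPM in Il6-expressing cells. Of mature cells with more cDC2 than cDC1 marker UMIs, 183 of 472 were Il6-expressing (38.8%, interval 34.4% to 43.3%), and of those with more cDC1 marker UMIs, 55 of 320 (17.2%, 13.2% to 21.8%). These intervals did not overlap. Of the 1963 mature cells with none of either, 27.3% were Il6-expressing, so most members, 536 cells, could not be placed.

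Within cells that leaned to one type, the 15 highest and 10 lowest genes after CpG kept their direction apart from H2-M2. The leaning cells are part of the cells whose ratios picked these genes, so the kept direction is a description. Such leaning did not make the groups alike in lineage markers. Among cDC1-leaning cells after CpG, Xcr1 had 3.75 CPM (2 UMIs) in Il6-expressing against 40.2 CPM (65 UMIs) in Il6-negative cells. Of the 107 genes called higher in all mature cells after CpG, 58 were also called among cDC2-leaning and 55 among cDC1-leaning cells, and of the 68 called lower, 39 and 24. In all, 96 genes were called higher and 100 lower among cDC2-leaning cells, and 136 and 64 among cDC1-leaning cells. Dll4 had 184 CPM in Il6-expressing against 50.6 CPM in Il6-negative cells of the cDC2-leaning kind, and 143 against 40.8 CPM in the cDC1-leaning kind. Nfkbiz had 242 against 82.1 CPM and 178 against 45.8 CPM in the same order. Epsti1 had a log2 ratio of -1.22 in both kinds. Serpinb1a had 189 against 700 CPM among cDC1-leaning cells and 71.8 against 114 CPM among cDC2-leaning cells, where it was within 2-fold. The Cd8a ratio was -1.41 in cDC2-leaning and -1.67 in cDC1-leaning cells, on the log2 scale. H2-M2 was at 0 UMIs against 48 UMIs in cDC2-leaning cells and had 11.3 against 8.66 CPM in cDC1-leaning cells.

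A neighbour of Il6 on the chromosome carried more UMIs in these cells too, seen after the values were known. Gm42806 is a long intergenic non-coding RNA gene on the opposite strand, with its annotated start 4316 bases before Il6. After CpG it had 47.9 CPM in Il6-expressing cells (42.4 to 54.0) against 11.6 CPM in Il6-negative cells (9.49 to 13.96). The ratio was 4.14 (3.30 to 5.23). After R848 it had 50.03 against 7.69 CPM, from 18 UMIs in the Il6-expressing cells. Thinned to 5000 UMIs, it was found in 18.4% of Il6-expressing and 5.10% of Il6-negative cells after CpG (unthinned 27.02% and 5.98%), against 1.32% of lysozyme-high cells with few Ccr7 and Fscn1 UMIs. Its level followed the Il6 count of the cell, with 11.6, 30.2, 36.6, 47.8 and 56.6 CPM from 0 to 5 or more Il6 UMIs.

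On the other side, Tyms, the thymidylate synthase gene, 38221 bases after Il6 and on the opposite strand, had 107 against 32.8 CPM after CpG, a ratio of 3.27 (2.84 to 3.76). After R848 it had 72.3 against 15.6 CPM, a ratio of 4.62 (2.94 to 6.99). It was the 1 gene of 9 measured in the cell cycle list that was past 2-fold after CpG; Top2a had 50.95 against 37.7 CPM and Pcna 24.1 against 21.95 CPM. Farther off, Hadha had a ratio of 1.31 and Hadhb of 1.19 after CpG. Before Il6, Gm42450, another long non-coding RNA gene, had 8.91 against 3.53 CPM, under the 20 CPM needed to be counted. Thus the nearest gene on either side had a ratio above 3, and the next ones after Tyms with over 20 CPM were within 2-fold.

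**Figure D4:**
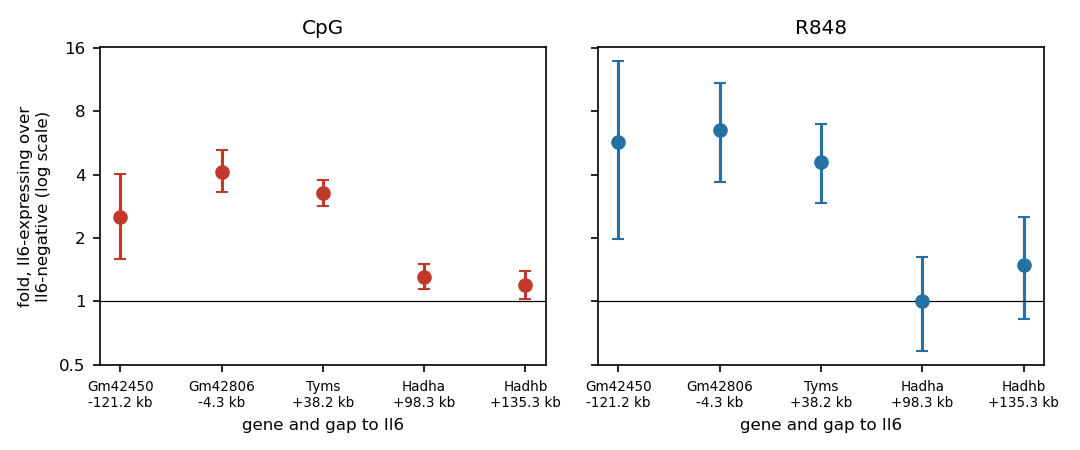
Ratio of the level in Il6-expressing over Il6-negative mature cells (y axis, log scale, exact interval) for 5 genes around Il6, ordered by position with their gap to Il6 in kb (x axis), in the CpG and R848 libraries. Gm42806 and Tyms lie above 2 in both libraries; Hadha is at 1.31 after CpG and its interval after R848 spans 1.

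After R848 the members were 57 cells with 359760 UMIs, so levels rest on few molecules. A gene needed 20 UMIs, which is 55.6 CPM in these Il6-expressing cells and 1.71 CPM in the 1971 Il6-negative cells, and higher and lower calls are therefore not judged alike. Of 3009 measured genes, 80 were at least 2-fold higher (2.66%) and 77 at least 2-fold lower (2.56%), with a median log2 ratio of -0.00. Dll4 was again high, with 97.3 CPM in Il6-expressing cells (67.8 to 135) against 7.35 CPM in Il6-negative cells (5.88 to 9.08; log2 ratio 3.05). Tnip3, an inhibitor of NF-kB signalling, had 214 against 30.1 CPM, and Kctd14 72.3 against 7.52 CPM. Mylk, a myosin light chain kinase gene, had 72.3 against 10.0 CPM, Cdk6, a G1 kinase gene, 88.9 against 16.8 CPM, and Plet1, a surface protein gene, 55.6 against 9.40 CPM. Plet1 rested on 3 of the 57 cells, 1 of which held 17 of its 20 UMIs. After CpG, Mylk (115 against 53.7 CPM) and Tnip3 had ratios of 2.14 and 2.03.

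On the lower side after R848, Xcr1, the XCL1 receptor of cDC1, had 0 UMIs in Il6-expressing cells against 28.8 CPM in Il6-negative cells, at least 3.45-fold lower with 3 counts as the limit for the group. Apod, a lipid carrier, was at 0 against 26.1 CPM, at least 3.13-fold lower. H2-M2 had 1 UMI (2.78 CPM) against 30.9 CPM. The other lowest genes rested on 1 to 3 UMIs: Wdr90 had 2.78 against 29.8 CPM (ratio 0.0932, 0.00235 to 0.523), Ly9 2.78 against 28.5 CPM (0.0974, 0.00246 to 0.546) and Mpeg1, a pore-forming protein gene, 8.34 against 54.0 CPM (0.154, 0.0318 to 0.453). The cDC1 markers summed to 25.02 CPM in Il6-expressing and 85.0 CPM in Il6-negative cells, and their part in the lower genes was not tested.

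Several cytokine, regulator and costimulatory genes were higher in the R848 members, and the 2 comparisons share no cells. Over all measured genes 2.66% were at least 2-fold higher. A gene higher in the members counted as measured only from 20 UMIs, which is 55.6 CPM in them. Genes under that level and only slightly higher in the members were left out. This can raise the shares of higher genes in the lists, so the counts below are a description. Cytokines had 3 of 6 measured genes higher: Il1rn (217 against 99.4 CPM), Ebi3 (217 against 95.0 CPM) and Tnfsf9, the ligand of 4-1BB (83.4 against 37.5 CPM). Regulators of Il6 had 3 of 12 higher: Nfkbiz (94.5 against 37.0 CPM), Jun (603 against 207 CPM) and Batf (108 against 35.4 CPM), both AP-1 family members. Tnfrsf9 had 214 against 63.7 CPM and Ccl17 623 against 208 CPM. Costimulatory ligands had 4 of 12 higher and 0 lower, Tnfsf9, Cd86 (206 against 86.0 CPM), Cd200 (689 against 341 CPM) and Cd48 (97.3 against 40.8 CPM). MHC class II presentation had 0 of 12 higher and 2 lower, with a median of -0.45. Over all measured genes 2.56% were at least 2-fold lower, and lower genes were measured from 20 CPM.

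For genes with at least 50 CPM in the mature cells of both libraries, the direction after R848 was counted against the call after CpG. Of 1969 such genes, 60.8% had a log2 ratio above 0 after R848, 1.57% were at least 2-fold higher and 1.17% at least 2-fold lower. Of the 22 called higher after CpG, 22 were above 0 after R848 and 10 (45.5%) at least 2-fold higher, with a median of 0.90 against 0.10 over all 1969. Of the 34 called lower after CpG, 4 were above 0 and 7 (20.6%) at least 2-fold lower, with a median of -0.49. The limit of 50 CPM keeps abundant genes, so it leaves out Dll4 and Nfkbiz.

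**Figure D5:**
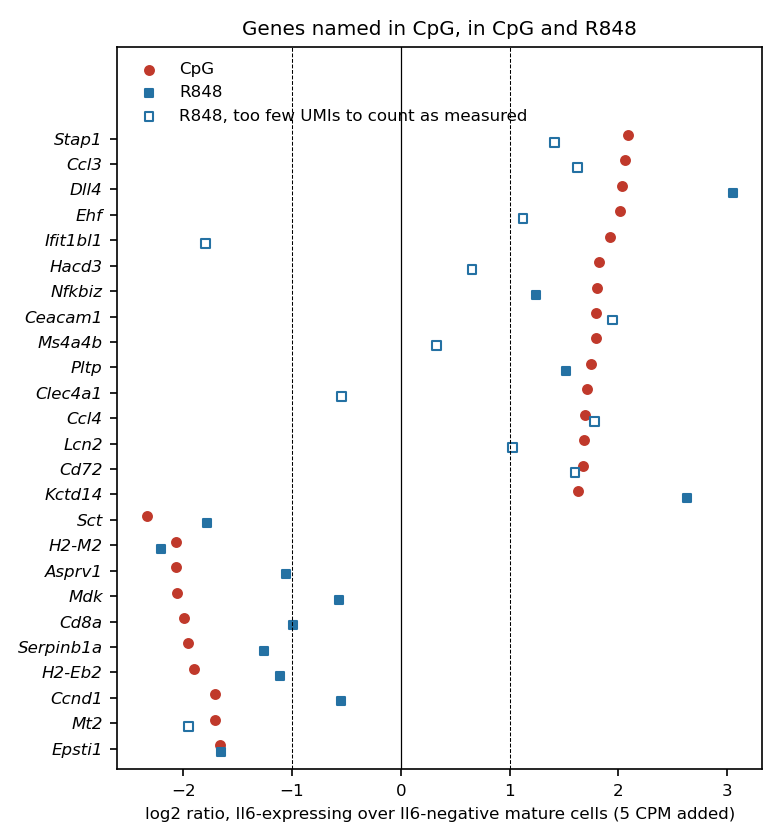
Log2 ratio of Il6-expressing over Il6-negative mature cells (x axis, 5 CPM added to both levels) of the 15 highest and 10 lowest genes after CpG, in the CpG library (circles) and the R848 library (squares, hollow where too few UMIs were found to count the gene as measured). The R848 points lie on the side of the CpG points for all but Ifit1bl1 and Clec4a1, both with 0 UMIs in the R848 Il6-expressing cells.

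The 15 members of the Control library held 112580 UMIs. Nfkbiz had 18 UMIs in Il6-expressing cells (160 CPM) against 68.0 CPM in Il6-negative cells, Dll4 11 UMIs (97.7 CPM) against 34.0 CPM and Il1rn 50 UMIs (444 CPM) against 112 CPM. Plet1 had 42 UMIs (373 CPM), 27 of them in 1 cell, against 56.7 CPM. Both lineages' markers were higher in the Control members, with cDC1 markers at 248.7 against 101 CPM and cDC2 markers at 391 against 140 CPM, and 9 of the 15 cells leaned to cDC2 by their marker UMIs. These cells were too few for calls over all genes.

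The kappaB letters of the Il6 window were also looked for, on both strands, in the windows of genes higher in these cells, from 250 bases before to 50 after the RefSeq start. They were present in 1.63% of 32851 mouse promoter windows. That share is per window, whereas a gene was counted if any of its windows held the letters. The 24 genes looked up were the named genes with the highest ratios after CpG and called genes from the gene lists, not all genes called higher. Of these 24 genes 17 had a window, and 3 of the 17 held the letters: Il1rn, Cxcl1 and Tnfrsf9. All 3 came from the gene lists, and none of the highest-ratio genes with a window held the letters. Since list genes were picked, the share among the 17 cannot be set against the 1.63% of all windows. The AP-1 letters were in 7.81% of all windows and in 3 of the 17 genes. Stretches of 60 bases around the matches are shown so that they can be set beside the Il6 site; capitals mark the kappaB letters, which Cxcl1 holds a pair of times, once per strand. The stretches are chr2:24345295-24345354, chr5:90891131-90891190 and chr4:150927931-150927990, all on the plus strand of GRCm38.p6.
Il1rn: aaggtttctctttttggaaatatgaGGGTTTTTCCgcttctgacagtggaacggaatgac
Cxcl1: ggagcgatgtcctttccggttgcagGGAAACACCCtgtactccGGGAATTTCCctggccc
Tnfrsf9: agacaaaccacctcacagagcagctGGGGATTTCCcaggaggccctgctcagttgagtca
A match is a description of these letters and not a measured site, and the windows of Dll4, Ccl3 and Cd72 held none.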

How the data were processed

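Phagocytes from Peyer's patches were measured in 3 single-cell libraries (CpG, R848 and Control). Per the submitters' processing notes, reads were processed with Cell Ranger 2.0.0 and the build mm10; the sources used here name no annotation release. The deposited matrices hold raw UMI counts of 27998 genes per cell barcode, which the authors did not normalise. The barcode and gene files name their columns and lines.

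Cells were grouped by the limits given in the report. UMIs were summed per group within a library and scaled to CPM, and log2 ratios were taken with 5 CPM added. Genes with at least 20 CPM and 20 UMIs in the higher group were measured, and those at least 2-fold different were called. Cells are not replicates, so there was no test. Intervals are exact Poisson for levels, exact conditional binomial for ratios and Clopper-Pearson for shares, at 95%; a count of 0 has a limit of 3 counts. Doublets were scored from 2 simulated doublets per cell and 50 neighbours, and the top 0.8% per 1000 cells were marked but kept. Kept cells held 43672252, 46473204 and 43407190 UMIs in CpG, R848 and Control. The code was tested on simulated data. Named genes were the 15 highest and 10 lowest ratios after CpG and the 6 highest and 6 lowest after R848, leaving out genes of the limits, receptor segments, ribosomal, haemoglobin and mitochondrial genes and unnamed models; list members were added. The members of the group, the 17 gene lists and the 15 marker lists were chosen with earlier results of these data known. Of the list genes 8 were not among the matrix genes. Python 3.11.15 with numpy 2.4.6, scipy 1.17.1, pandas 2.3.3 and scikit-learn 1.9.0 was used. Gene positions came from GENCODE M21 (GRCm38, the assembly called mm10) by Ensembl ID, and promoter windows from RefSeq on GRCm38.p6. Alternatives were other pseudocounts, level minimums, scalings, cell limits, thinning, lineage-leaning cells and marked doublets. Some items are not reported here.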

Additional observations from a re-analysis of the deposited data

Results flagged for a closer look

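A trio of genes had a ratio on one side of 1 after CpG and on the other side after R848, in Il6-expressing against Il6-negative mature cells. With 1 library per treatment the difference was not tested. Ifit1bl1 had log2 ratios of 1.92 after CpG and -1.79 after R848, a difference of 3.71. It was at 0 UMIs in the R848 Il6-expressing cells against 12.3 CPM in the Il6-negative cells, under the 20 CPM needed to be measured, so the -1.79 and the 3.71 depend on the 5 CPM added; with 3 counts as the limit for the group it was at least 1.48-fold lower after R848. Cd86 had -0.64 after CpG and 1.21 after R848, a difference of -1.85. Nr4a2, an immediate early nuclear receptor gene, had -0.27 after CpG and 1.13 after R848, a difference of -1.40.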

How the results depend on the processing

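No paired analysis was possible because each treatment has 1 library. The share of Il6-expressing cells in CpG moved to 25.03% thinned to 5000 UMIs, 30.3% with no limit on Il12b, 44.5% at 1 Il6 UMI or more and 19.95% at 3 or more; in R848 it was 3.43%, 10.2% and 0.911%, and in Control 8.96%, 14.4% and 2.61% under the last 3 of these. Of 175 genes called after CpG, the count was 77 with 20 CPM added, 88 at a minimum of 100 CPM and 76 at 1 Il6 UMI or more. Of 157 after R848, the counts were 73, 50 and 23 under the same settings, 348 with no CPM minimum, 456 at 3 Il6 UMIs or more (20 cells), 596 in cDC2-leaning (9 cells) and 968 in cDC1-leaning cells (5 cells), where few UMIs leave most genes at 0. Reversed log2 ratios were H2-M2 after CpG in cDC1-leaning cells (0.25); after R848, in cDC2-leaning cells, Nfkbiz (-1.39), Plet1 (-2.83) and Sct (0.0404); in cDC1-leaning cells, Asprv1 (1.69), Dll4 (-0.34), H2-Eb2 (0.37), Kctd14 (-0.68) and Pltp (-1.75); H2-Eb2 at 1 Il6 UMI or more (0.0668); and Plet1 at 3 or more (-0.0491). The cause was not tested. The 15 highest CpG genes stayed between 0.77 and 2.504 over 225 values, with 0 reversed. The R848 calls are limited by 57 cells. Leaving out a replicate was not possible with 1 library per group.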
